A study of Capra hircus with 9 samples.

Results

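Integrins are the receptors with which cells hold on to the matrix around them, and laminins are the sheet-forming proteins of the basement membrane on which mammary epithelium rests. The genes described here are the integrin and laminin genes of the goat mammary gland, chosen by symbol as every gene of the deposited table named ITGA, ITGB1 to ITGB8 or LAMA, LAMB or LAMC with its number. The rule found 36 of the 23499 genes of the table, 25 of them integrins (17 alpha and 8 beta subunits) and 11 laminin chains. Of the symbols looked for, ITGAD and LAMB2 were not analysed here.

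The 9 libraries each came from mammary tissue of 1 healthy Laoshan dairy goat, with 3 goats in late lactation (LL, 240 days postpartum), 3 in the dry period (DP, 300 days postpartum) and 3 in late gestation (LG, 140 days after mating). The goats were about 4 years old, in the third parity, and were kept on 1 farm under shared feeding. Each stage is a different set of animals, so a difference between stages is also a difference between goats. Whole tissue was sequenced, so fewer cells of a type and less RNA per cell cannot be told apart in any value below.

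An integrin is made of 1 alpha and 1 beta subunit, and the pair decides the ligand. The pairs of ITGA3, ITGA6 and ITGA7 with ITGB1 or ITGB4 bind laminin, those of ITGA1, ITGA2, ITGA10 and ITGA11 with ITGB1 bind collagen, and a large group including ITGA5, ITGA8 and ITGAV reads the RGD motif of fibronectin, vitronectin and osteopontin. ITGB2 and ITGB7 and their alpha partners belong to leukocytes and are described apart from the epithelial and stromal subunits. A laminin is a trimer of 1 alpha, 1 beta and 1 gamma chain. A trimer with LAMA3 and LAMB3 anchors basal epithelial cells through the integrin of ITGA6 and ITGB4 in hemidesmosomes, LAMA2 and LAMA4 are chains of muscle, stromal and vascular basement membranes, and LAMA5 is a chain of mature epithelial and vascular ones.

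Values are FPKM, fragments scaled to gene length and library size, and are comparable between genes because they are per length. The deposited FPKM of the median gene was higher in DP and LG than in LL by 1.09 and 0.93 on the log2 scale. Each library was therefore divided by a median-ratio factor (0.498 to 0.605 (LL), 1.44 to 1.53 (DP) and 1.20 to 1.31 in LG), and "scaled FPKM" below means values after that step. Fold changes are on log2(scaled FPKM + 1), which understates changes of genes near 0. A gene was called when its adjusted p, from limma with Benjamini-Hochberg adjustment over 14701 genes, was under 0.05 and its log2 fold change was at least 1 in size. The 3 comparisons share the libraries of the stages, so they are not independent of each other.

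A property of the table bears on low values. In each library 1 amount recurs, equal to the difference between BAX and FTL there, which was 1.0, 1.3 and 1.5 FPKM in LL, 1.0, 1.5 and 1.5 (DP) and 1.5, 1.2 and 1.0 (LG). More genes held exactly that value than held the values just below it, in LL replicate 2 for example 77 genes against a mean of 19.6 at the 5 values below. The 9 values of 10522 genes, 21 of the 36 integrin and laminin genes among them, were all at or above these amounts. Which genes hold the amount is not known, so each fold change, call, and most of the ratios and shares were also computed with the amounts taken off those genes, and again with the amounts taken off within each stage where the 3 values of that stage reached them. Both of these alternatives were chosen after seeing the data. For the integrin and laminin genes reported below, calls that change under these alternatives are given beside their values. Calls gained under the other settings, such as another pseudocount or scaling, are given only in part. The calls of the adaptor, partner, ligand and marker genes named below were not examined under these alternatives.

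More of these genes were higher in DP than in the other stages. Of the 34 that passed the filter on low values (LAMA1 and LAMB4 did not), 13 were called higher in DP than in LL and 1, ITGA6, was called lower, against 22.6% of all genes called in that comparison (13.8% higher and 8.79% lower). From DP to LG, 9 were called lower and 0 higher by limma, where 13.3% of all genes were called (6.37% higher and 6.88% lower). At an unadjusted p under 0.05 from limma, 20 were lower and 1 higher, and the share of all genes at that threshold is not given here. Between LL and LG, 4 were called higher and 1 lower, a share of 14.7% beside 17.3% of all genes (10.7% higher and 6.61% lower). The median log2 fold change of the 34 was 0.86 for DP over LL, beside 0.0041 for all genes. It was -0.081 for LG over LL (all genes 0.019) and -0.69 for LG over DP (all genes 0.0083). Without scaling the LG against LL split was 12 higher and 0 lower, with quantile normalization it was 1 higher and 1 lower, and with the amounts taken off within each stage it was 1 higher and 3 lower. Without LG replicate 2 the LG against LL comparison called 3. The shares of all genes called under these settings are not given here, and without scaling the median of all genes stood at 0.93.

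**Figure D1:**
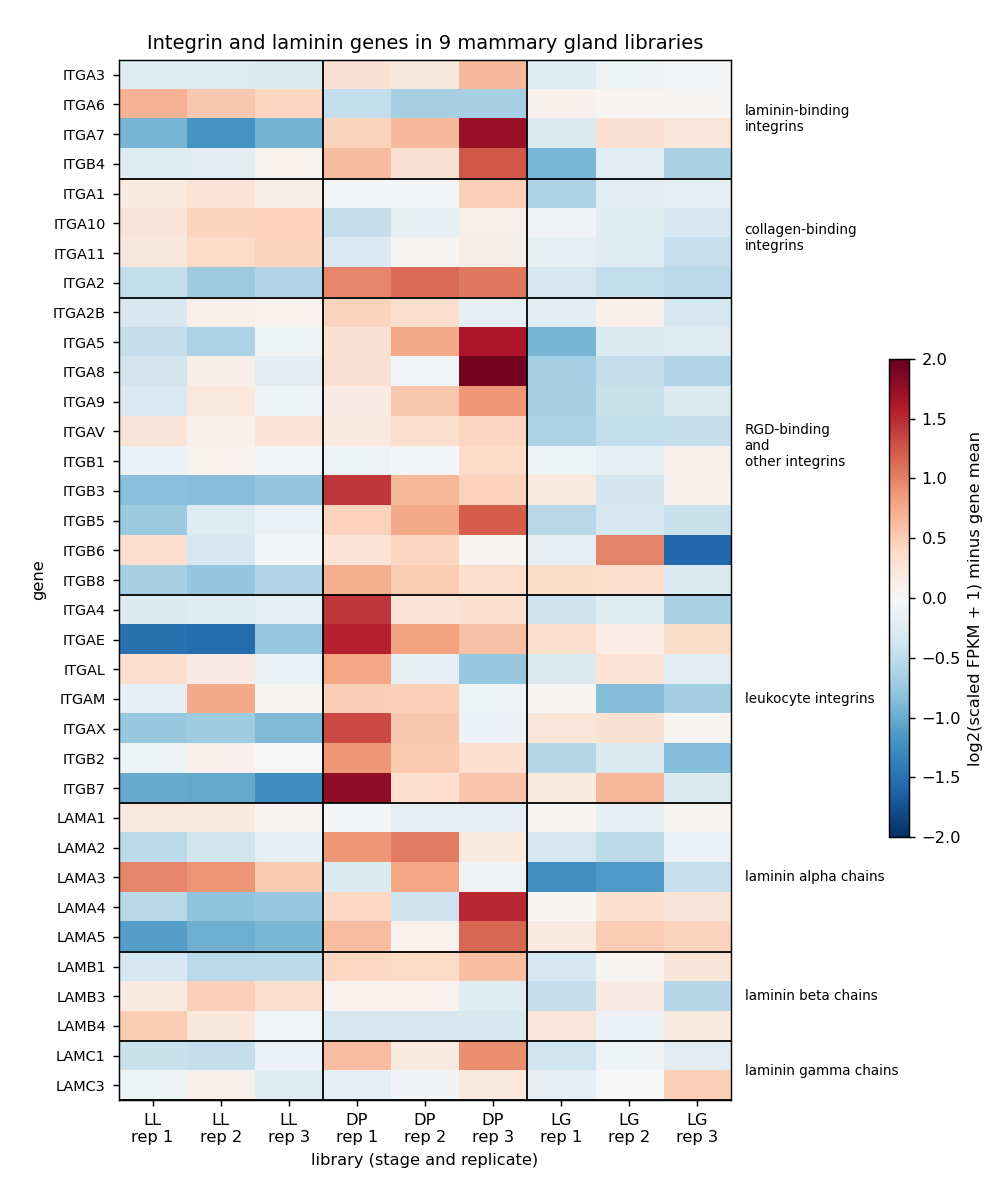
Level of 35 integrin and laminin genes (rows, grouped by ligand or chain) in the 9 libraries (columns), as log2(scaled FPKM + 1) minus the mean of the gene over the libraries, with colours limited to 2 in each direction. Most rows are reddest in the DP columns, whereas ITGA6 is bluest there and LAMA3 is bluest in LG.

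The DP libraries were not alike, and several results turn on 1 of them. DP replicate 1 held the most leukocyte RNA, with PTPRC, the pan-leukocyte phosphatase, at 36.7 scaled FPKM beside 19.1 and 13.2 in the other DP libraries. DP replicate 2 held the most keratin RNA, with KRT8 at 154 beside 69.8 and 70.7. DP replicate 3 held the most stromal RNA, with FN1, encoding fibronectin, at 192 beside 44.1 and 38.4 and the summed fibroblast markers at 2392 beside 502 and 906. The keratin and epithelial markers found for the tissue were present in every library, except OXTR, which was at 0 in LL replicate 3. The markers of skeletal muscle never summed to more than 0.132.

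Among the receptors for laminin, ITGA6 fell in DP, where its hemidesmosome partner ITGB4 was not called. ITGA6 (gene ID 102186530, chromosome 2, 112115008 to 112200834, plus strand, in the coordinates of the table, which names no build) stood at 52.8, 46.9 and 43.8 scaled FPKM (LL), 22.5, 20.0 and 19.8 (DP) and 34.3, 33.1 and 32.7 (LG). The stages did not overlap, with LL highest, LG between and DP lowest. The change from LL to DP had a log2 fold change of -1.16 (SE 0.13, adjusted p = 8.83e-05), and LG against LL (log2 fold change -0.50, SE 0.13, adjusted p = 0.0111) and LG against DP (log2 fold change 0.66, SE 0.13, adjusted p = 0.00449) did not reach the size needed for a call. The direction rests on the scaling, because without it DP against LL was 0.21 with an adjusted p of 0.195, on a scale where the median of all genes stood at 1.09. With quantile normalization the log2 fold change was -0.68 and was not called. Some luminal markers fell in the same comparison. Of 8, ELF5, a transcription factor of secretory cells (-4.19), and PRLR, the prolactin receptor (-1.24), were called lower and none higher, and EPCAM, an epithelial surface protein, was at -0.74 (adjusted p = 0.0257). KRT18 (0.60) and KRT8 (0.28), both luminal keratins, lay above 0 and were not called, and the other 6 markers lay below 0. The ratio of ITGA6 to EPCAM was 0.698 to 1.05 (LL) and 0.561 to 0.917 (DP), which overlap. The ratio of ITGA6 to KRT8 was 0.653, 0.700 and 0.558 (LL) and 0.322, 0.130 and 0.281 (DP), which do not overlap. The part of these markers in ITGA6 was not tested.

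ITGB4 (gene ID 102191175, chromosome 19, 55062985 to 55095442, minus strand), the beta subunit of hemidesmosomal integrin, stood at 3.34, 3.42 and 4.36 scaled FPKM (LL), 6.89, 5.31 and 11 (DP) and 1.72, 3.4 and 2.26 (LG). Its DP libraries lay above all LL and LG libraries, and LL and LG overlapped. The drop from DP to LG was called, with a log2 fold change of -1.31 (SE 0.25, adjusted p = 0.00314), and the call held under each alternative tried. DP against LL gave a log2 fold change of 0.85 (SE 0.25, adjusted p = 0.0155), under the size for a call, but was called without DP replicate 2 (1.05), with the amounts taken off (1.27) and with the amounts taken off within each stage (1.33). The ratio of deposited ITGA6 to ITGB4, which no scaling between libraries changes, was 15.8, 13.7 and 10.04 (LL), 3.27, 3.76 and 1.79 (DP) and 20.0, 9.71 and 14.5 (LG). Every DP library was thus below every other library, also with the amounts taken off, when the ratio ran from 21.9 to 41.8 (LL), 1.88 to 4.43 (DP) and 13.2 to 70.8 (LG).

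ITGA7 (gene ID 102169839, chromosome 5, 56911923 to 56935433, plus strand), the laminin receptor typical of muscle, stood at 0.542, 0.271 and 0.512 scaled FPKM (LL), 2.98, 3.56 and 8.62 (DP) and 1.4, 2.63 and 2.45 (LG). The order was LL, LG, DP with no overlap, and DP replicate 3 was the highest. It rose from LL to DP with a log2 fold change of 1.96 (SE 0.30, adjusted p = 0.000563), which each alternative kept, and from LL to LG with a log2 fold change of 1.11 (SE 0.30, adjusted p = 0.0127). The LG call is fragile. It was lost without LG replicate 2 (0.99), with quantile normalization (0.61), without the filter on low values, with the amounts taken off (0.92) and with the amounts taken off within each stage (0.34, adjusted p 0.54), while LG against DP was called without DP replicate 1 (-1.08). The markers of smooth muscle and pericytes summed to 46.5, 65.4 and 171 scaled FPKM in DP, 49.8 to 61.8 (LL) and 38.6 to 45.7 (LG), with none at 0, and their part in ITGA7 was not tested.

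ITGA3, the remaining laminin receptor and one that epithelial cells use with ITGB1, was not called. It ranged from 2.99 to 3.11 scaled FPKM in LL, 4.72 to 6.68 (DP) and 3.07 to 3.76 (LG), so that DP lay above both other stages. Its log2 fold change of 0.66 (SE 0.13, adjusted p = 0.00241) in DP against LL became 1.33 with the amounts taken off and 1.37 with them taken off within each stage, and was then called.

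**Figure D2:**
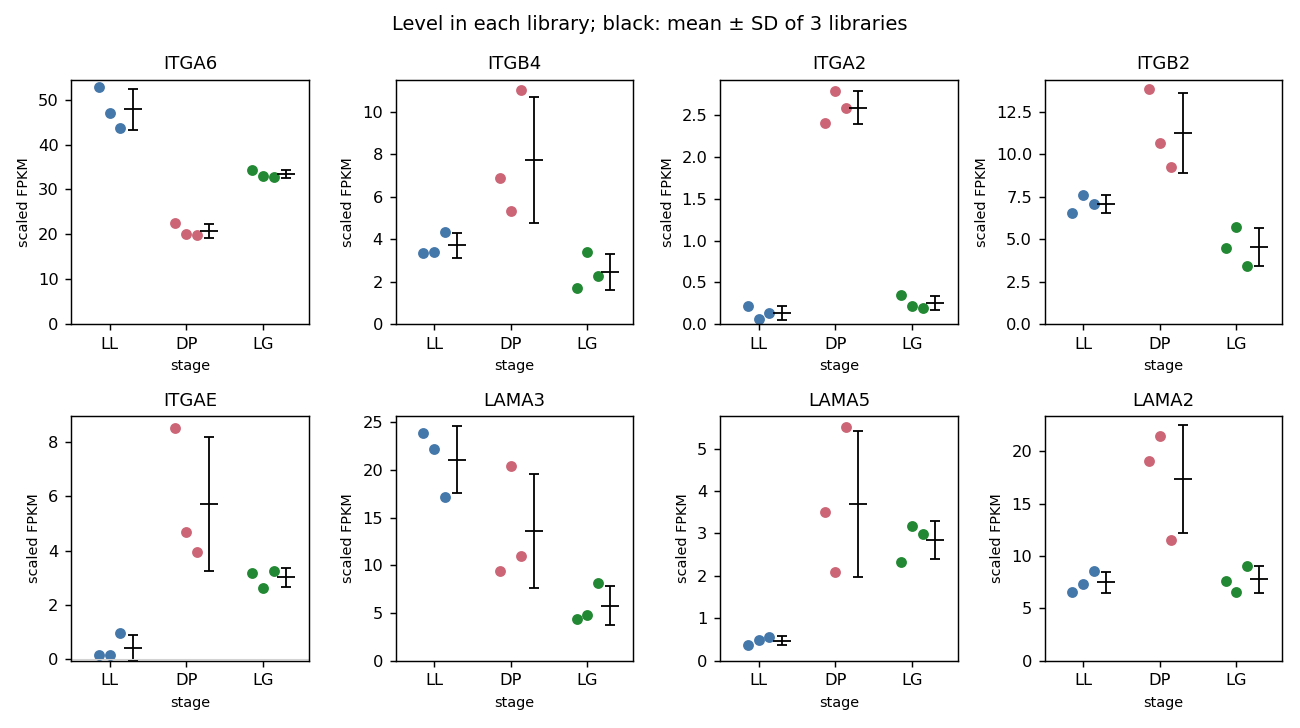
Scaled FPKM of 8 genes in each library (points, coloured by stage), with the mean and SD of the 3 libraries of a stage in black, each panel with its own axis. ITGA6 is lowest in DP, ITGB4, ITGA2, ITGB2, ITGAE and LAMA2 are highest there, LAMA3 is lowest in LG and LAMA5 is lowest in LL.

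Of the collagen receptors, ITGA2 was the one called, and its values were above 1 in the DP libraries alone. ITGA2 (gene ID 102172198, chromosome 20, 26024056 to 26133098, minus strand), the alpha subunit by which epithelial cells and platelets bind collagen, stood at 0.221, 0.0542 and 0.132 scaled FPKM (LL), 2.4, 2.79 and 2.58 (DP) and 0.351, 0.219 and 0.19 (LG). The DP libraries differed from one another by less than the gap to any other library. DP exceeded LL with a log2 fold change of 1.66 (SE 0.12, adjusted p = 8.48e-06), and LG fell below DP with a log2 fold change of -1.52 (SE 0.12, adjusted p = 6.21e-05). The first call held under each alternative that could be fitted, and the second did except with the amounts taken off within each stage, where it was -0.9995 and just short in size. ITGA2 passed the filter on low values only through the DP libraries, where it was high, so its limma p-values are not free of that selection. When any DP library was left out it was not tested, so whether its calls rest on 1 DP library could not be examined. The platelet markers in the table summed to at most 0.271 in any library.

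The 3 other collagen receptors were not called. ITGA10 ranged from 2.33 to 2.82 scaled FPKM in LL and from 0.988 to 1.98 in the other stages, and ITGA11, a fibroblast subunit, from 2.11 to 2.64 in LL and from 0.944 to 1.88 elsewhere. With the recurring amounts left in, both were thus highest in LL. Their log2 fold changes against LL lay between -0.65 and -0.41, all with adjusted p under 0.05 from limma but under the size for a call. All values of both genes were at or above the amounts. In LL the scaled amounts were 2.01, 2.35 and 2.48, just below ITGA11 at 2.11, 2.46 and 2.64. The order of the stages with the amounts taken off is not given here, so whether either gene was highest in LL is not settled. ITGA1 gave no measurement of its own. In each library its deposited value was that of PELO, a gene lying within it on the same strand, plus 1.54 FPKM plus the recurring amount, with a largest residual of 0.00, so ITGA1 and PELO cannot be told apart. Its values ran from 9.43 to 21.1 scaled FPKM.

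The group that binds RGD and other ligands held the most abundant integrin, ITGB1, the common partner of most alpha subunits. Its scaled FPKM ran from 83.3 to 95.8 (LL), 84.8 to 119 (DP) and 78.8 to 98.1 (LG), and its log2 fold changes lay between -0.14 and 0.11, none called. Without scaling, DP against LL was 1.51 and LG against LL 1.13, both called, against medians of 1.09 and 0.93 for all genes. ITGB6, the epithelial partner of ITGAV, stood at 17.4 to 28.3 (LL) and 22.9 to 30.3 (DP), but its LG libraries stood at 19.8, 44.9 and 6.80. No ITGB6 difference was called, and the spread within LG covered the other stages. ITGAV itself ranged from 21.7 to 28.0 in LL and DP and from 12.9 to 14.5 (LG), below both without overlap. Its drop of -0.73 against LL and -0.86 against DP had adjusted p of 0.00147 and 0.000994 and missed the size for a call, which it reached against LL with the amounts taken off (-1.12) or taken off within each stage (-1.05) and against DP with quantile normalization (-1.13).

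Of these 10 genes, 4 were called higher in DP than in LL and 3 lower in LG than in DP. These are 40.0% and 30.0% of the group, beside 13.8% and 6.88% of all genes. The 10 include ITGA2B, which gave no measurement of its own, as described below. ITGA5 (gene ID 102176587, chromosome 5, 25402506 to 25423572, plus strand), the fibronectin receptor of mesenchymal cells, stood at 2.81, 2.46 and 3.95 scaled FPKM (LL), 5.54, 8.01 and 15.3 (DP) and 1.79, 3.34 and 3.45 (LG). Its DP libraries lay above all others and DP replicate 3 was highest. The log2 fold change of 1.29 (SE 0.32, adjusted p = 0.00692) in DP against LL fell to 0.92 and was not called without DP replicate 3, whereas LG against DP (log2 fold change -1.38, SE 0.32, adjusted p = 0.00838) was called under each alternative.

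ITGB5 (gene ID 102173608, chromosome 1, 68975717 to 69087834, minus strand), a further partner of ITGAV, stood at 3.9, 5.86 and 6.51 scaled FPKM (LL), 10.2, 12.8 and 17.9 (DP) and 4.54, 5.56 and 5 (LG). Again DP lay above both other stages and these overlapped. DP against LL gave a log2 fold change of 1.18 (SE 0.22, adjusted p = 0.00152), not called without LL replicate 1 (0.99) or DP replicate 3 (0.97), and LG against DP gave a log2 fold change of -1.25 (SE 0.22, adjusted p = 0.0021), called throughout. Fibroblast markers summed to 212 to 324 scaled FPKM in LL, 502 to 2392 (DP) and 521 to 954 (LG), with none at 0, so both DP and LG lay above LL. Of the 6, 5 were called higher in DP than in LL and 2 higher in LG than in LL, beside 13.8% and 10.7% of all genes. Their part in ITGA5 and ITGB5 was not tested.

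ITGB3 (gene ID 102169417, chromosome 19, 45950375 to 46011651, plus strand), a subunit of endothelial cells, osteoclasts, platelets and luminal progenitors, stood at 0.161, 0.145 and 0.215 scaled FPKM (LL), 4.56, 2.28 and 1.84 (DP) and 1.4, 0.6 and 1.21 (LG). The stages followed the order LL, LG, DP without overlap. The rise from LL to DP had a log2 fold change of 1.67 (SE 0.24, adjusted p = 0.000411) and held under each alternative. LG against DP (log2 fold change -0.87, SE 0.24, adjusted p = 0.0217) was called only with a pseudocount of 0.1 (-1.32), without scaling (-1.12) and without DP replicate 3 (-1.04).

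ITGB8 (gene ID 102191301, chromosome 4, 91410508 to 91505570, minus strand), an epithelial partner of ITGAV, stood at 0.884, 0.759 and 1.01 scaled FPKM (LL), 3.96, 3.26 and 2.81 (DP) and 2.89, 2.84 and 1.45 (LG). LL was lowest, and DP and LG overlapped. DP against LL gave a log2 fold change of 1.20 (SE 0.19, adjusted p = 0.000575), which was lost with quantile normalization (0.79), with the amounts taken off (0.88) and with them taken off within each stage (0.58, adjusted p 0.0517). LG against LL (log2 fold change 0.82, SE 0.19, adjusted p = 0.00538) was called without LG replicate 3 (1.03).

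ITGA8 (gene ID 102181695, chromosome 13, 29389711 to 29586203, minus strand), a receptor of smooth muscle and mesenchyme, stood at 0.462, 1.07 and 0.628 scaled FPKM (LL), 1.32, 0.819 and 6.07 (DP) and 0.192, 0.357 and 0.244 (LG). DP replicate 3 was far above all other libraries, DP replicate 1 lay just above LL and DP replicate 2 within the LL range. LG against DP was called lower (log2 fold change -1.30, SE 0.42, adjusted p = 0.0366), but not without DP replicate 3 (-0.68), LL replicate 3 (-1.33) or any LG library (-1.33 to -1.24), nor with 4 of the other settings, which were no filter on low values (-1.30), quantile normalization (-1.11), only the stages compared (-1.47) and the amounts taken off within each stage (-1.21). DP against LL, at 0.87 with an adjusted p of 0.1, was called without DP replicate 2 (1.23).

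ITGA9, a receptor of tenascin and of adhesion molecules, ranged from 2.03 to 3.36 (LL), 3.21 to 5.84 (DP) and 1.36 to 2.10 (LG). Its log2 fold change of -0.99 (SE 0.20, adjusted p = 0.00472) in LG against DP lay just under the size for a call and passed it without LL replicate 1 (-1.005), DP replicate 1 (-1.15) or LG replicate 3 (-1.07) and with the amounts taken off (-1.33) or taken off within each stage (-1.35). DP against LL, at 0.58, was called with the amounts taken off (1.56) and with them taken off within each stage (1.59). ITGA2B, the platelet subunit, gave no measurement of its own. Its deposited value equalled that of its neighbour GPATCH8 minus the recurring amount in all 9 libraries, with a largest residual of 0.00. It is given only as a range, 2.18 to 4.54 scaled FPKM.

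Among the 7 leukocyte integrins, ITGAE, ITGB7 and ITGAX rose from LL to DP, where 13.8% of all genes were called higher, and ITGB2 and ITGA4 fell from DP to LG, where 6.88% were called lower. In LG against DP all 7 log2 fold changes were below 0. ITGAE (gene ID 102179809, chromosome 19, 24198191 to 24258647, minus strand), which with ITGB7 ties lymphocytes to the E-cadherin of epithelium, stood at 0.161, 0.127 and 0.941 scaled FPKM (LL), 8.53, 4.7 and 3.93 (DP) and 3.18, 2.62 and 3.23 (LG). ITGB7 (gene ID 102180190, chromosome 5, 26528286 to 26544856, plus strand), its partner, stood at 0.462, 0.452 and 0.248 scaled FPKM (LL), 9.08, 2.73 and 3.37 (DP) and 2.39, 3.68 and 1.44 (LG). Both were lowest in LL with no overlap, and both were highest in DP replicate 1. In DP against LL, ITGAE had a log2 fold change of 2.24 (SE 0.27, adjusted p = 0.000118) and ITGB7 a log2 fold change of 1.98 (SE 0.35, adjusted p = 0.00128), and each alternative kept both calls.

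Both were also called in LG against LL, ITGAE with a log2 fold change of 1.55 (SE 0.27, adjusted p = 0.00135) and ITGB7 with a log2 fold change of 1.29 (SE 0.35, adjusted p = 0.013). These calls are less firm. Scaled LL values of both genes were under 1. With the amounts taken off within each stage, ITGAE stood at 0.99 and ITGB7 at 0.64 (adjusted p 0.245), neither called. ITGB7 was also lost without LG replicate 2 (1.04), without the filter on low values and with quantile normalization (0.85). CDH1, encoding E-cadherin, the ligand of this pair, ranged from 24.7 to 26.7 (LL), 14.5 to 23.0 (DP) and 19.4 to 20.4 in LG and was not called.

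ITGAX (gene ID 102180910, chromosome 25, 27280517 to 27300394, plus strand), the subunit of dendritic cells and macrophages, stood at 0.181, 0.217 and 0.0826 scaled FPKM (LL), 4.01, 1.91 and 0.834 (DP) and 1.37, 1.46 and 1.07 (LG). LL was lowest without overlap. Its log2 fold change of 1.37 (SE 0.30, adjusted p = 0.00363) in DP against LL was lost without DP replicate 1 (0.96) and with quantile normalization (0.96). LG against LL (log2 fold change 0.99, SE 0.30, adjusted p = 0.0196) missed the size narrowly and was called without LL replicate 1 (1.05), LL replicate 2 (1.07) or LG replicate 3 (1.04), and LG against DP was called with the amounts taken off within each stage (-1.11).

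ITGB2 (gene ID 100861185, chromosome 1, 144694367 to 144725092, minus strand), the beta subunit of nearly all white cells, was the most abundant leukocyte integrin, at 6.55, 7.63 and 7.05 scaled FPKM (LL), 13.9, 10.7 and 9.24 (DP) and 4.48, 5.7 and 3.43 (LG). The order was LG, LL, DP without overlap. LG fell below DP with a log2 fold change of -1.15 (SE 0.18, adjusted p = 0.00137), a call lost without DP replicate 1 (-0.99) or LG replicate 3, where the value was -0.998 and just short in size. DP against LL (log2 fold change 0.59, SE 0.18, adjusted p = 0.0212) was under the size for a call.

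ITGA4 (gene ID 102183190, chromosome 2, 121173323 to 121272504, plus strand), by which lymphocytes and monocytes bind VCAM1 and MADCAM1 on vessels, stood at 2.15, 2.22 and 2.33 scaled FPKM (LL), 9.26, 3.59 and 3.74 (DP) and 1.85, 2.22 and 1.44 (LG). DP lay above both other stages, and DP replicate 1 stood far above the rest. LG against DP (log2 fold change -1.11, SE 0.27, adjusted p = 0.0119) was lost without DP replicate 1 (-0.71) or LG replicate 3 (-0.998) and with quantile normalization (-0.999), each time in size, and with the amounts taken off within each stage LG against LL was called at -1.06. DP against LL (log2 fold change 0.91, SE 0.27, adjusted p = 0.0178) was called without DP replicate 2 (1.098) or DP replicate 3 (1.08).

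ITGAL and ITGAM, the alpha subunits of the classic lymphocyte and myeloid ITGB2 integrins, were not called. ITGAL ranged from 2.61 to 4.02 scaled FPKM in LL, 1.35 to 5.78 (DP) and 2.23 to 3.85 (LG), and ITGAM from 1.49 to 3.71, 1.60 to 2.89 and 0.527 to 1.89. For both, the stages overlapped, although ITGAM in LG against DP was called without LG replicate 1 (-1.06).

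The leukocyte markers are given beside these genes, and their part in them was not tested. PTPRC stood at 7.19, 5.35 and 6.82 scaled FPKM (LL), 36.7, 19.1 and 13.2 (DP) and 8.69, 10.5 and 6.41 (LG), and the 11 leukocyte markers in the table summed to 55.7 to 72.5 (LL), 119 to 181 (DP) and 46.0 to 59.7 (LG), with 6 of 9 tested called higher in DP than in LL, 6 lower in LG than in DP and MS4A1, of B cells, at 0 in 1 library. In LG against LL, where ITGAE and ITGB7 were called higher, the marker sums overlapped, PTPRC was at 0.34 (adjusted p = 0.398), and 1 marker was called higher and 2 lower. The T cell gene CD3D was higher (1.46), with the T cell genes CD3E (0.78) and CD2 (0.68) above LL without overlap but not called, and the myeloid genes CD14 (-1.18) and CD68 (-1.05) were lower. The ratio of ITGB2 to PTPRC was 0.911, 1.43 and 1.03 (LL), 0.378, 0.557 and 0.700 (DP) and 0.516, 0.544 and 0.536 (LG), so LL lay above both. The ratio of ITGAE to PTPRC was 0.0223, 0.0236 and 0.138 (LL), 0.233, 0.246 and 0.298 (DP) and 0.366, 0.250 and 0.505 (LG), and here LL lay below. ITGB7 to PTPRC likewise ran from 0.0363 to 0.0845 in LL and from 0.142 to 0.351 in DP and LG, and ITGAL to PTPRC from 0.383 to 0.639 (LL), 0.102 to 0.158 (DP) and 0.256 to 0.376 (LG). These are descriptions of 3 libraries a stage with no test. With the amounts taken off, ITGB2 to PTPRC stayed above both other stages in LL (0.876 to 1.76, beside 0.367 to 0.674 elsewhere), and ITGAL to PTPRC no longer did (0.0304 to 0.388 (LL), 0.0251 to 0.303 elsewhere). With the amounts taken off within each stage, LL overlapped the other stages for ITGAE to PTPRC (0.031 to 0.217 (LL), 0.173 to 0.438 elsewhere) and for ITGB7 to PTPRC (0.0570 to 0.151 (LL), 0.0931 to 0.285 elsewhere). As a share of all integrin FPKM, the leukocyte subunits held 6.11% to 7.20% (LL), 19.1%, 10.9% and 7.52% (DP) and 6.69% to 8.58% (LG).

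**Figure D3:**
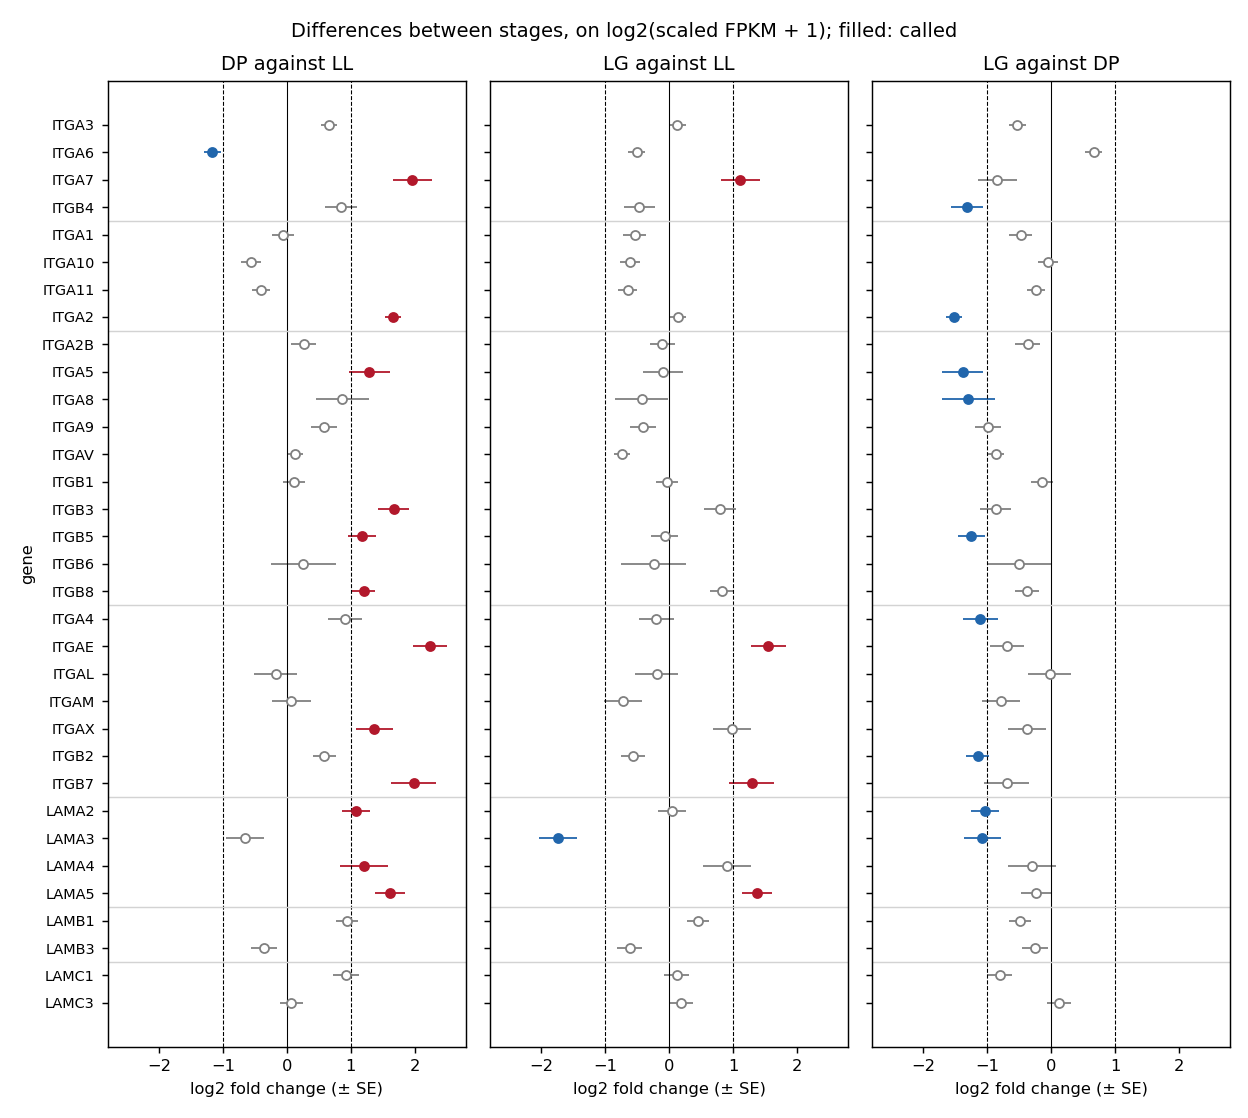
Log2 fold change (points, with SE bars) of 33 genes that passed the filter, on the log2(scaled FPKM + 1) scale, in the 3 comparisons. Filled points are called (red higher, blue lower), dashed lines mark 1 in each direction, and grey lines part the groups of genes. Red points crowd the DP against LL panel and blue points the LG against DP panel.

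Of the laminin alpha chains, the epithelial chain LAMA3 went down from LL to LG while LAMA5 went up. LAMA3 (gene ID 102190835, chromosome 24, 33026004 to 33281542, minus strand) stood at 23.9, 22.2 and 17.2 scaled FPKM (LL), 9.38, 20.4 and 11 (DP) and 4.39, 4.76 and 8.17 (LG). LG lay below both other stages, and DP replicate 2, the library richest in keratin RNA, reached the LL range. LAMA3 fell from LL to LG with a log2 fold change of -1.73 (SE 0.29, adjusted p = 0.00117), a call kept under each alternative but the one without scaling (-0.65), and from DP to LG with a log2 fold change of -1.08 (SE 0.29, adjusted p = 0.0186). That second call was lost without DP replicate 2 (-0.75), LG replicate 1 (-0.93) or LG replicate 2 (-0.98) and without the filter on low values. DP against LL (log2 fold change -0.66, SE 0.29, adjusted p = 0.08) was called with the amounts taken off (-1.08) and with them taken off within each stage (-1.006).

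The keratins are given beside LAMA3, and their part in it was not tested. KRT8 ranged from 67.1 to 80.8 scaled FPKM in LL, 69.8 to 154 (DP) and 66.1 to 77.9 (LG), and KRT14, of basal cells, from 47.8 to 66.8, 11.7 to 63.0 and 39.5 to 49.2, and neither was called in any comparison. Of the 7 myoepithelial and basal markers, TP63, a basal cell transcription factor, was called higher in DP (1.47) and LG (1.60) than in LL and OXTR, the oxytocin receptor, in LG (2.11), and none was called lower. KRT5, a basal keratin, lay above LL in LG without overlap (1.84 times, log2 fold change 0.88) but was not called. The 8 luminal markers summed to 900 to 1180 (LL), 319 to 567 (DP) and 874 to 1033 (LG), a sum in which ELF5 held the largest value in LL and LG.

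LAMA5 (gene ID 102171801, chromosome 13, 54199069 to 54237112, minus strand) stood at 0.362, 0.488 and 0.562 scaled FPKM (LL), 3.51, 2.08 and 5.5 (DP) and 2.33, 3.19 and 2.99 (LG). LL was lowest without overlap, and DP and LG overlapped. It rose from LL to DP with a log2 fold change of 1.61 (SE 0.23, adjusted p = 0.000378), kept under each alternative, and from LL to LG with a log2 fold change of 1.38 (SE 0.23, adjusted p = 0.0012), which was lost with quantile normalization (0.92) and with the amounts taken off within each stage (0.75, adjusted p 0.083).

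LAMA2 (gene ID 102187050, chromosome 9, 54306124 to 54983404, plus strand) stood at 6.53, 7.32 and 8.56 scaled FPKM (LL), 19.1, 21.4 and 11.5 (DP) and 7.61, 6.59 and 9.08 (LG). DP was above the others, which overlapped, and DP replicate 3 was the lowest of the DP libraries. The part of fibroblast markers in LAMA2 was not tested. The calls of DP against LL (log2 fold change 1.08, SE 0.22, adjusted p = 0.00265) and LG against DP (log2 fold change -1.03, SE 0.22, adjusted p = 0.00586) sat close to the size needed. The first was lost without LL replicate 1 (0.99), DP replicate 1 (0.99) or DP replicate 2 (0.91) and with the amounts taken off (0.99), and the second without DP replicate 1 (-0.94), DP replicate 2 (-0.86) or LG replicate 2 (-0.94).

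LAMA4 (gene ID 102177440, chromosome 9, 25512853 to 25661234, plus strand), the chain of vessels and fat, stood at 5.14, 4.16 and 4.33 scaled FPKM (LL), 11, 5.75 and 24.5 (DP) and 8.18, 10.3 and 9.71 (LG). DP replicate 3 was far above the other DP libraries, one of which came near the LL range. Its log2 fold change of 1.21 (SE 0.38, adjusted p = 0.0221) in DP against LL was lost without DP replicate 3 (0.70), LL replicate 2 (1.15) or LL replicate 3 (1.17) and without the filter on low values. LG against LL (log2 fold change 0.91, SE 0.38, adjusted p = 0.0726) was called with the amounts taken off (1.20) and with them taken off within each stage (1.26). The 6 endothelial markers, with none at 0, summed to 109 to 138 (LL), 129 to 199 (DP) and 62.6 to 86.5 in LG and none of them was called against LL in limma, where in DP 2 and in LG 4 had an adjusted p under 0.05. Their part in LAMA4 was not tested. LAMA1, the embryonic chain, did not pass the filter and stayed at or below 0.342 scaled FPKM in every library.

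The make-up of the alpha chains changed accordingly within libraries. LAMA3 held 65.9%, 64.3% and 55.7% of the summed alpha chain FPKM in LL, 21.7%, 41.1% and 20.9% (DP) and 19.3%, 19.1% and 27.1% (LG). LAMA4 held 12.1% to 14.2% (LL), 25.5%, 11.6% and 46.6% (DP) and 32.2% to 41.4% (LG), and LAMA5 held 0.998% to 1.82%, 4.19% to 10.5% and 9.92% to 12.8%. LAMA3 was thus the main alpha chain of each LL library, whereas each LG library had LAMA4 as its main one and LAMA2 as the next. The ratio of LAMA3 to LAMA2 was 3.66, 3.03 and 2.01 (LL) and 0.491 to 0.954 in the 6 DP and LG libraries, and with the amounts taken off it was 2.42 to 4.84 and 0.473 to 0.952.

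**Figure D4:**
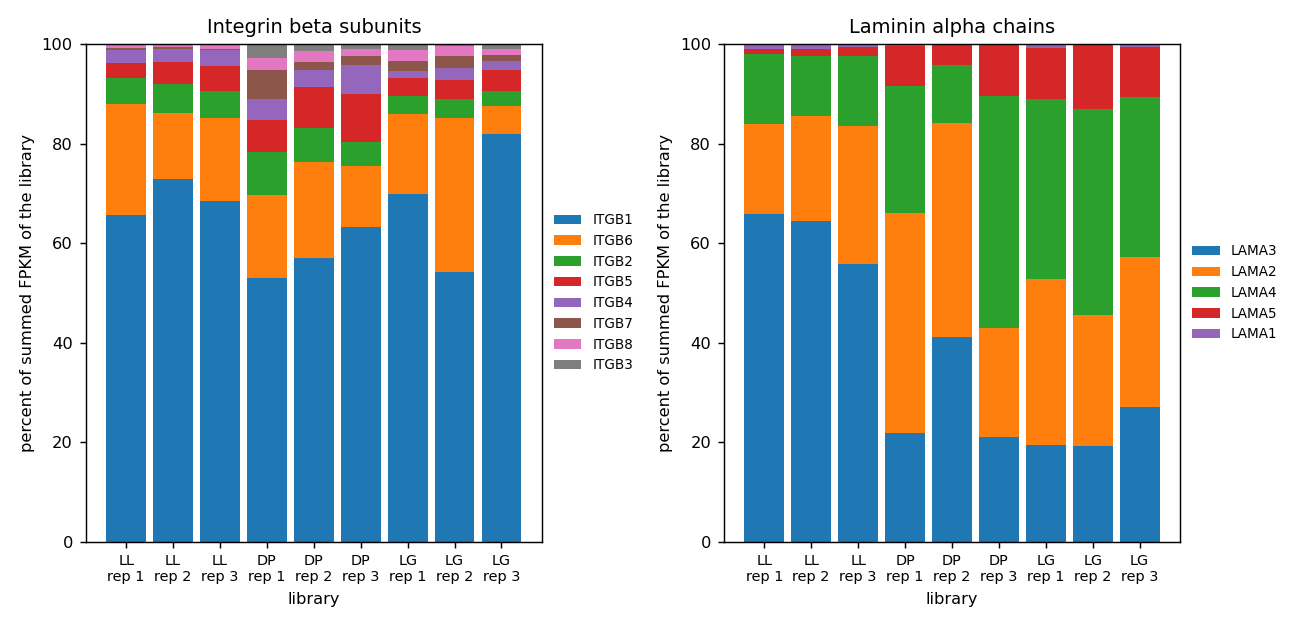
Share of each integrin beta subunit (left) and each laminin alpha chain (right) in the summed deposited FPKM of its class, 1 bar per library. ITGB1 makes up more than 50% of each bar on the left, and on the right LAMA3 fills 55.7% to 65.9% of the LL bars and 19.1% to 41.1% of the others.

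The beta chains gave no call, with 1 of the 2 tested at an unadjusted p under 0.05 in DP against LL and 2 in LG against LL by limma. LAMB1, the general beta chain, ranged from 11.9 to 13.7 scaled FPKM in LL, 23.6 to 27.4 (DP) and 13.6 to 21.4 (LG), so DP lay above both. Its log2 fold change of 0.94 (SE 0.17, adjusted p = 0.00138) in DP against LL fell short in size, and reached it with quantile normalization (1.23). LAMB3, the epithelial partner of LAMA3, ranged from 9.64 to 12.1 (LL), 6.93 to 8.91 (DP) and 5.33 to 9.57 (LG), and LG against LL (log2 fold change -0.62, SE 0.20, adjusted p = 0.0281) was not called. Its ratio to LAMB1 was 0.706, 1.02 and 0.888 in LL and lay between 0.249 and 0.520 in the 6 other libraries, which LL did not overlap, nor did it with the amounts taken off (0.655 to 1.02 (LL), 0.222 to 0.493 elsewhere). LAMB4 did not pass the filter, with values up to 0.804 (LL), up to 0.501 in LG and listed at 0 in DP replicates 1 and 2.

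Of the gamma chains, LAMC1, the general one, ranged from 10.7 to 14 (LL), 17.6 to 29.9 (DP) and 11.3 to 14.4 (LG). DP lay above both, with a log2 fold change of 0.93 (SE 0.20, adjusted p = 0.00359) against LL, not called, and was called without LL replicate 3 (1.03) or DP replicate 2 (1.12). LAMC3 ranged from 2.10 to 4.16 over all libraries, and its log2 fold changes of 0.071, 0.19 and 0.12 were not called.

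**Figure D5:**
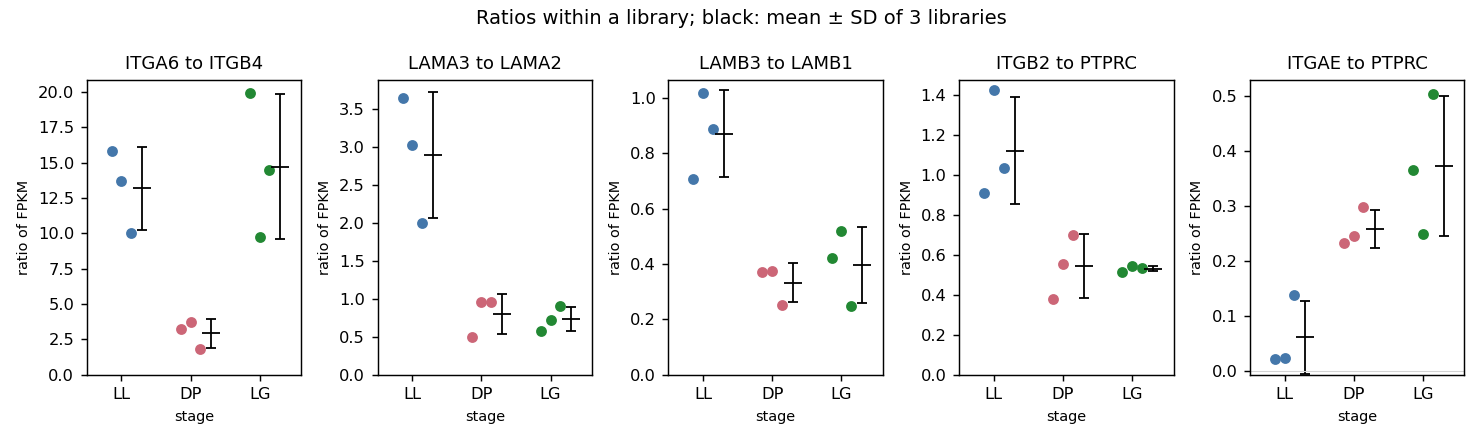
Ratios of deposited FPKM within a library (points, by stage; mean and SD of 3 libraries in black), which do not depend on scaling between libraries. ITGA6 to ITGB4 is lowest in DP, at 1.79 to 3.76, LAMA3 to LAMA2 and LAMB3 to LAMB1 are highest in LL, ITGB2 to PTPRC is highest in LL and ITGAE to PTPRC lowest there.

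The subunits work through adaptors, of which 20 were fixed as a list and all passed the filter. In DP against LL 3 were called higher and 1 lower, in LG against LL 1 higher, and in LG against DP 2 higher and 4 lower. These are 20.0%, 5.0% and 30.0% of the list, beside 22.6%, 17.3% and 13.3% of all genes, with median log2 fold changes of 0.16, -0.13 and -0.48. FERMT3, the kindlin of blood cells, was the one called in both DP and LG against LL, with a log2 fold change of 1.94 (SE 0.20, adjusted p = 4.79e-05) in DP and a log2 fold change of 1.01 (SE 0.20, adjusted p = 0.00264) in LG. Its values were 0.804, 0.741 and 0.264 scaled FPKM (LL), 6.81, 4.58 and 4.13 (DP) and 2.22, 2.64 and 1.75 (LG). Its deposited LL values, at most 0.41 FPKM, were below the recurring amounts, whereas its LG values of 2.66, 3.26 and 2.30 FPKM were above them. The LG call was not examined with the amounts taken off. ZYX, encoding zyxin of focal adhesions, and PARVG, the parvin of blood cells, were the others higher in DP, at 1.05 and 1.03. TLN1, the talin that switches integrins on, was not called (log2 fold change 0.70, SE 0.17, adjusted p = 0.00703 in DP against LL), whereas its paralog TLN2 was lower in DP than in LL (-1.05) and higher in LG than in DP (1.18). In LG against DP, FERMT2, the kindlin of other cells, was also higher (1.03), and PTK2B, a focal adhesion kinase (-1.34), TNS1, a tensin (-1.32), PARVB (-1.14) and ZYX (-1.12) were lower.

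Of the 17 basement membrane and hemidesmosome partners, 15 passed the filter, and 4 of these were higher in DP than in LL, 1 was higher in LG than in LL and 1 was lower in LG than in DP. These are 26.7%, 6.67% and 6.67% of the list, beside 22.6%, 17.3% and 13.3% of all genes. COL4A5, a collagen IV chain of mature membranes, stood at 0.141, 0.163 and 0.116 scaled FPKM (LL), 2.96, 1.96 and 4.02 (DP) and 2.33, 2.59 and 3.57 (LG). Against LL its log2 fold change was 1.77 (DP) and 1.73 (LG), and like LAMA5 it was lowest in LL without overlap. COL18A1, the precursor of endostatin, and NID1, the linker between laminin and collagen IV, were higher in DP by 1.12 and 1.03, as was DST, a plakin that ties ITGB4 to keratin (1.08). DST then fell in LG against DP (-1.40), the same direction as ITGB4. COL4A1, the main collagen IV chain, at 25.8 to 78.4 over all libraries, and COL17A1, the hemidesmosomal collagen, at 3.56 to 10.7, were not called in any comparison.

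Ligands of integrins other than laminin changed in both directions. Of the 14 listed, 12 were tested, and DP against LL called 6 higher and 3 lower, LG against LL 1 higher and 3 lower, and LG against DP 1 higher and 6 lower. These are 75.0%, 33.3% and 58.3% of the list, beside 22.6%, 17.3% and 13.3% of all genes. SPP1, encoding osteopontin, a ligand of ITGAV pairs that is also a milk protein, stood at 3898, 2071 and 2274 scaled FPKM (LL), 115, 117 and 157 (DP) and 11.9, 2.72 and 7.72 (LG), with a log2 fold change of -8.46 in LG against LL. MFGE8, a milk fat globule protein with an RGD motif, was lower in DP (-4.11) and in LG (-2.76) than in LL, and FBLN5, an elastic fibre protein, likewise (-1.33 and -1.64). Among those higher in DP than in LL were the matrix proteins POSTN (2.97), FN1 (2.04) and TNC (1.98), and these were lower in LG than in DP (-2.25, -1.81 and -2.16). FN1 and TNC were by far highest in DP replicate 3, where TNC stood at 22.3 beside 1.08 and 3.61. ICAM1, the ligand of ITGB2 integrins on vessels, stood at 4.12, 3.56 and 4.31 scaled FPKM (LL), 11.8, 11.8 and 14.6 (DP) and 2.88, 4.22 and 3.41 (LG), higher in DP than in LL (1.46) and lower in LG than in DP (-1.62). NPNT, the ligand of ITGA8, was higher in LG than in LL (1.43). MADCAM1, at or below 0.125, and VTN, listed at 0 in every library, were not tested, and VCAM1 was not analysed here.

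Overlap with other genes limits some of these values. Reads of 9 of the 36 genes could be shared with a gene that overlaps them, since the library kit does not record the strand. Those that the tests called were ITGAE (with GSG2, up to 2.89 FPKM), ITGA4 (with CERKL, up to 0.52), LAMA2 (with a gene that has a locus number for a name, up to 4.42) and ITGA7 (with METTL7B, listed at 0). How reads of such overlaps were assigned is not given in the sources used here.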

How the data were processed

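RNA from mammary tissue of 9 goats, 3 in each stage, was sequenced after poly(A) selection with a kit that does not record strand. The authors checked and trimmed reads with FastQC and Trimmomatic, aligned them with HISAT2 and sorted alignments with SAMtools. For quantification the paper's methods name StringTie and the submitters' processing notes HTSeq. The methods also describe a correction with RUVSeq, and whether the table holds it is not given in the sources used here. The authors deposited 1 table of FPKM values per gene and library. The table names neither unit nor genome build, holds no counts, and so leaves depth unknown. No column of comparisons by the authors was used.

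From the deposited FPKM, each library was divided by its median ratio over 15905 genes above 0 throughout, and log2(value + 1) was fitted for genes with at least 0.5 FPKM in 3 libraries with limma 3.58.1 in R 4.3.3 (mean-variance trend, all 9 libraries, two-sided, Benjamini-Hochberg adjustment). The fit was tested on simulated data. Python 3.11.15 and matplotlib 3.10.9 did the rest. Members and lists were chosen with earlier results of these data known. Every integrin and laminin gene was named, called ones with all values, except 1 that entered the counts and is not reported here. Of the context lists, called genes of largest change were named, up to 3 per list and comparison, with 14 fixed genes such as TLN1 and PTPRC. PARVG, PARVB, FERMT2 and NPNT fell outside this rule, as did the marker genes other than PTPRC, KRT8 and KRT14, and were chosen after their values were seen. Alternatives were another or no scaling, pseudocount, filter, trend, a replicate block, only the stages compared, and each library left out.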

Additional observations from a re-analysis of the deposited data

How the results depend on the processing

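Of the 28 calls, 9 were kept under all alternatives that could be fitted and 19 were lost under at least 1. Among the 9 is ITGA2 in DP against LL, which could not be fitted with any DP library left out. Without scaling, 28 genes were called between DP and LL, 12 between LG and LL and 16 between LG and DP. The values of ITGA1 (1.27, a gene that repeats PELO) and ITGA6 (0.21) for DP over LL and of ITGB1 (1.13) for LG over LL turned positive, on a scale where the median of all genes moved by 1.09 and 0.93. Each of these 3 values was called either with or without scaling, and 21 other values changed sign with no call in either. By adjusted p alone the counts were 23, 16 and 16. For LG over LL, quantile normalization called 2, a pseudocount of 0.1 called 8 and no filter called 3, in each case beside 5. Leaving out each library in turn gave 11 to 16, 3 to 7 and 6 to 10 calls for DP over LL, LG over LL and LG over DP. The shares of all genes called under these settings are not given here, so the counts have no background beside them. Without ITGA1 and ITGA2B, which repeat a neighbouring gene, ITGA6 made up 50.2%, 21.1% and 47.3% of alpha subunit FPKM in the stages LL, DP and LG, and leukocyte subunits 7.11% of integrin FPKM in LL. With the amounts taken off, by either rule, the mean ITGA6 to ITGB4 ratio was 34.0 in LL and 35.1 in LG, LAMA3 to LAMA2 was 3.75 in LL, and ITGB2 to PTPRC was 0.468 in LG. ITGB7 to PTPRC was then 0.0989 in LL, and ITGAL to PTPRC 0.258, 0.0830 and 0.242 in LL, DP and LG. LAMA3 held 69.2% and LAMA4 8.29% of alpha chain FPKM in LL, and leukocyte subunits 5.41% of integrin FPKM there. Taken off within each stage, ITGAE to PTPRC was 0.220 in DP, ITGB7 to PTPRC 0.186 in LG, LAMA5 held 8.29% in LG and leukocyte subunits 5.69% in LG. The cause was not tested. Each stage is a different set of goats, so the replicate numbers do not pair them. The deviations of same-numbered libraries correlated at -0.106 to 0.201, which cannot by itself decide pairing. The fit with a replicate block called 14, 5 and 9. With 3 goats a stage and no counts, small changes of genes near 0 are limited by the unknown depth.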
